A study of Mus musculus with 8 samples.

Results

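Collagen IV and collagen VI are the matrix collagens that lie next to cells. They are represented here by 5 genes, *Col4a1*, *Col4a2*, *Col6a1*, *Col6a2* and *Col6a3*, chosen by symbol from the 11840 genes of the table in which the authors named their genes. All 5 were found and linked by Ensembl identifier to the counts. The question was how these chains differ between the resting zone and the proliferative zone of the mouse growth plate.

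Collagen IV chains wind into heterotrimers that join into the sheet-like scaffold of basement membranes, which underlie endothelium and surround pericytes, fat cells and muscle fibres. The chains encoded by *Col4a1* and *Col4a2* form the ubiquitous heterotrimer of that scaffold. Collagen VI heterotrimers are built from the products of *Col6a1*, *Col6a2* and *Col6a3* and assemble into beaded microfilaments, which in cartilage are concentrated in the pericellular matrix that encloses each chondrocyte.

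All mice were Axin2CreERT2;R26RTdTomato animals, in which tamoxifen activates Cre recombinase in cells that express *Axin2* and marks these cells and their descendants with the red protein TdTomato. Every mouse received 3 tamoxifen injections from P23 (postnatal day 23) and was killed at P30, so both zones come from induced carriers of both alleles. The resting group holds TdTomato-positive resting zone chondrocytes microdissected by laser from 8 μm cryosections. The proliferative group holds unlabeled, flattened chondrocytes taken at least 50 μm away from the secondary ossification center. Resting cells were therefore chosen by *Axin2* lineage as well as by position. By the labels, 2 mice were male (1 and 2) and 2 female (6 and 13). Each gave 1 library per zone, so n = 4 per zone. The labels name tibiae, whereas the paper describes the distal femur and the proximal tibia.

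Total counts on genes lay between 192882 and 462044 in resting and between 249284 and 631474 in proliferative libraries, after 2 rounds of amplification by in vitro transcription without molecular identifiers. Intervals and limits below therefore cover counting error only. Levels are in CPM, the counts of a gene scaled to a common library size with TMM factors, and are given as the mean ± SD. A limit of 3 counts corresponds to 5.97 to 14.7 CPM in a resting library and to 4.81 to 12.4 CPM in a proliferative library. The 11 markers of chondrocytes were all tested. They summed to 7411 to 19360 CPM in resting and 34405 to 59210 CPM in proliferative libraries, so both zones carried the labelled cell type, at levels that did not overlap. In such bulk samples, fewer cells of a type and less RNA per cell cannot be told apart.

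*Col4a1* (ENSMUSG00000031502) and *Col4a2* (ENSMUSG00000031503) lie head to head on chromosome 8 of GRCm38. *Col4a1* occupies 11198423 to 11312826 on the minus strand and *Col4a2* occupies 11312805 to 11449287 on the plus strand. Their annotated start sites are 21 bases apart, and the first exons overlap by 22 bases on opposite strands. The shared stretch is shown because a read that falls there belongs to neither gene alone if counting ignores strand. It is read on the plus strand of GRCm38.p6 at chr8:11312801-11312830 from RefSeq, and capitals mark the 22 shared bases.
Col4a1 and Col4a2: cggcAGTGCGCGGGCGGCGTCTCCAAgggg

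*Col6a1* (ENSMUSG00000001119, chromosome 10, 76708792 to 76726168) and *Col6a2* (ENSMUSG00000020241, chromosome 10, 76595762 to 76623630) follow each other on the minus strand with 85161 bases between them. *Col6a3* (ENSMUSG00000048126, chromosome 1, 90765923 to 90843971) is also on the minus strand. The 100 bases upstream of its start are shown for contrast with the collagen IV pair, because no motif searched here was found in its window. They are read from RefSeq on the minus strand of GRCm38.p6 at chr1:90843972-90844071, with no capitals.
Col6a3: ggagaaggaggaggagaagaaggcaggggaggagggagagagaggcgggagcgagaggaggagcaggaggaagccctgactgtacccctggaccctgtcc

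RefSeq promoter windows of 300 bases, from 250 bases before to 50 after a start, were matched for 5 of 5 genes. The GC box GGGCGG was searched on both strands and occurred in 35.7% of all 32851 windows. The *Col4a2* window held 3 matches and the *Col4a1* window 1, and the match inside the shared 22 bases is counted in both. *Col6a2*, with windows at 2 annotated starts, held 3 and 1 matches, whereas *Col6a1* and *Col6a3* held 0. CCAAT, present in 37.4% of windows, occurred once in each collagen IV window and in no collagen VI window. TATAAA, present in 13.6% of windows, was in none of them. The *Col4a1* and *Col4a2* windows held 37 and 33 CpG dinucleotides, against a median of 7 over all windows. Those of *Col6a1* and *Col6a3* held 3 each, and the *Col6a2* windows 16 and 6. These matches describe letters only.

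Both collagen IV chains were far more abundant in the resting zone, where every library held them, than in the proliferative zone, where no library held more than 9 counts of either. Among the collagen VI chains, *Col6a2* rose in the resting zone by a smaller amount, and *Col6a1* and *Col6a3* did not pass the test. A gene was called when edgeR's quasi-likelihood test gave an adjusted p below 0.01 and a log2 fold change above 1 or below -1. Of 3793 genes tested, 419 were called higher in the resting zone, or 11.0%, and 3 of the 5 collagen genes were among them. Every log2 fold change divides the resting by the proliferative zone, and the median over all tested genes was 0.08.

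*Col4a1*, which encodes the chain present in double dose in the usual collagen IV heterotrimer, had 310, 117, 155 and 211 CPM in the resting libraries of mice 1, 2, 6 and 13. In the proliferative libraries of the same mice it had 17.5, 0, 0 and 20.7 CPM. The lowest resting library was well above the highest proliferative library, and mice 2 and 6 had no count in the proliferative zone, which allows up to 5.14 and 4.81 CPM there. The means were 198 ± 83.7 CPM and 9.55 ± 11.1 CPM (n = 4 each). The log2 fold change was 4.61 (SE 0.79, adjusted p = 0.000963 by edgeR's quasi-likelihood test). Pooled over libraries, 260 counts against 14 gave a 27.0-fold ratio per total count (95% interval 15.8 to 50.1).

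*Col4a2*, the gene of the partner chain, had 213, 63.4, 115 and 162 CPM in the resting libraries of mice 1, 2, 6 and 13. The proliferative libraries had 3.88, 0, 0 and 4.15 CPM, which is 2 counts in mouse 1, 1 count in mouse 13 and none in the others. The order of the resting libraries was that of *Col4a1*, with mouse 1 highest and mouse 2 lowest, and the zones did not overlap. The means were 138 ± 63.8 CPM and 2.01 ± 2.32 CPM (n = 4 each), with a log2 fold change of 6.20 (SE 0.72, edgeR adjusted p = 0.000136). With 181 counts against 3, the pooled ratio of 87.7 had a wide interval of 29.5 to 429. Among the genes past the filter on low counts, 7 had a larger log2 fold change than *Col4a2* and 45 a larger one than *Col4a1*. Neither gene reached 10 counts in any proliferative library, so both passed that filter through the resting zone. These ranks depend on the filter and on the few proliferative counts, and nothing is concluded from them.

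*Col6a1* encodes a short chain of collagen VI. It had 155, 124, 300 and 270 CPM in the resting libraries of mice 1, 2, 6 and 13, against 89.3, 120, 109 and 120 CPM in the proliferative libraries. The zones did not overlap, but the resting library of mouse 2 was barely above the highest proliferative one. The means were 212 ± 86.1 CPM and 110 ± 14.5 CPM (n = 4 each). The log2 fold change of 0.96 (SE 0.32) did not reach the call, with an edgeR adjusted p of 0.0376. Of all tested genes, 675 had higher values in the resting zone without overlap, or 17.8%, and *Col4a1*, *Col4a2* and *Col6a1* were the 3 of 5 collagen genes with that pattern.

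*Col6a2*, the gene of the other short chain, had 182, 53.9, 247 and 196 CPM in the resting libraries. The proliferative libraries had 73.8, 27.4, 40.0 and 37.3 CPM. It was higher in the resting library of each mouse, yet the zones overlapped, since the resting library of mouse 2 lay below the proliferative library of mouse 1. The means were 170 ± 82.1 CPM and 44.6 ± 20.2 CPM (n = 4 each), with a log2 fold change of 1.92 (SE 0.46, edgeR adjusted p = 0.0076). This call was close to the threshold: it was lost without the resting library of mouse 1, 6 or 13 or the proliferative library of mouse 2, 6 or 13, with adjusted p from 0.0195 to 0.0352 in these edgeR fits. It was also lost with upper quartile factors (1.70, adjusted p = 0.0149), and against a log2 fold change of 1 the adjusted p was 0.0665.

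*Col6a3*, which encodes the long chain with its many von Willebrand factor type A domains, had 264, 120, 344 and 226 CPM in the resting libraries. The proliferative libraries had 149, 187, 176 and 191 CPM. Mouse 2 went the other way from the other 3 mice, and the zones overlapped. The means were 239 ± 93.0 CPM and 176 ± 18.6 CPM (n = 4 each), and the log2 fold change was 0.45 (SE 0.30, edgeR adjusted p = 0.299).

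**Figure D1:**
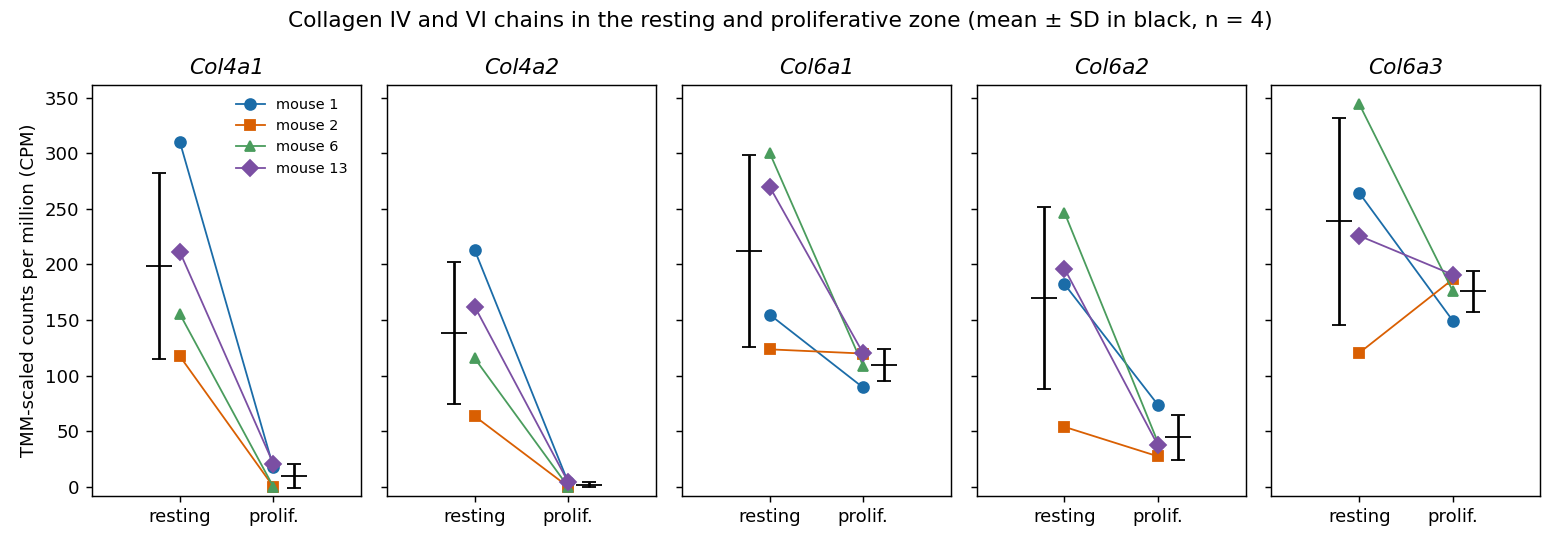
Level of each chain in CPM (vertical axis) in the resting and proliferative library of each mouse, joined by a line, with the mean ± SD of each zone in black (n = 4). The *Col4a1* and *Col4a2* lines fall to between 0 and 20.7 CPM in all 4 mice, whereas the *Col6a3* line of mouse 2 goes up.

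Exact permutation of the zone labels over the 8 libraries (two-sided, difference in mean CPM) gave p = 0.0286 for *Col4a1*, *Col4a2* and *Col6a1*, the smallest that 4 against 4 allows. This exchanges labels across mice, and an exact exchange within the 4 mice could not give a p below 0.125. The permutation over the 8 libraries gave an exact p of 0.0571 for *Col6a2* and 0.229 for *Col6a3*. Within mice 1, 2, 6 and 13, the log2 difference between the zones (prior count 2) was 3.82, 4.66, 5.05 and 3.08 for *Col4a1* and 4.64, 3.82, 4.64 and 4.22 for *Col4a2*. All 8 values were above 3, although those of mice 2 and 6 depend on the prior count because the proliferative count was 0. For *Col6a2* the within-mouse differences were 1.25, 0.87, 2.49 and 2.25, and for *Col6a1* they were 0.76, 0.04, 1.42 and 1.13. Those of *Col6a3* were 0.80, -0.61, 0.95 and 0.24. For each collagen VI gene, mouse 2 thus had the smallest or the only negative difference.

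**Figure D2:**
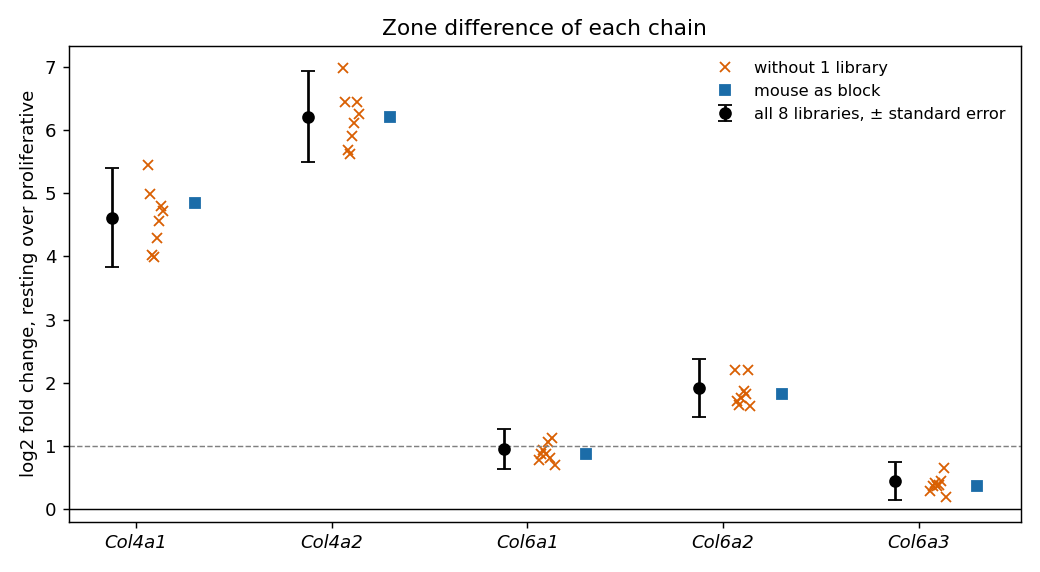
Log2 fold change of resting over proliferative (vertical axis) for each chain, with its standard error from all 8 libraries (black), the 8 fits without 1 library each (crosses) and the fit with the mouse as a block (squares). The dashed line marks a log2 fold change of 1, and the crosses span 3.99 to 5.45 for *Col4a1*, 5.62 to 6.99 for *Col4a2*, 0.70 to 1.13 for *Col6a1*, 1.64 to 2.20 for *Col6a2* and 0.19 to 0.66 for *Col6a3*.

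In the 2 male mice the log2 fold change was 4.62 for *Col4a1* and 6.02 for *Col4a2*, and in the 2 female mice it was 4.67 and 6.50. For *Col6a1* it was 0.41 in male and 1.32 in female mice, for *Col6a2* 1.23 and 2.51, and for *Col6a3* 0.20 and 0.65. The female value was the higher one for each gene, but the test of the zone by sex interaction in edgeR passed for none of them, with adjusted p from 0.807 to 0.997. The interaction of *Col6a1* was 0.91 with an SE of 0.52. Over all tested genes, 1 had an interaction with an adjusted p below 0.05 and 250 had an unadjusted p below 0.05.

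The share of collagen IV in the counts of the 5 genes, which does not depend on library size, separated the zones. It was 46.5%, 37.7%, 23.3% and 35.0% in the resting libraries of mice 1, 2, 6 and 13, and 6.40%, 0%, 0% and 6.67% in the proliferative libraries. The lowest resting share, in mouse 6, had a 95% Wilson interval of 20.0% to 26.9%, which does not reach the highest proliferative interval of 3.09% to 13.8% in mouse 13. In the proliferative libraries of mice 2 and 6, 0 of 195 and 0 of 203 counts had Wilson upper limits of 1.93% and 1.86%. Summed over chains, collagen VI had 621 ± 247 CPM in resting and 330 ± 15.1 CPM in proliferative libraries (n = 4 each), so that its level varied little between mice in the proliferative zone and widely in the resting zone. The resting library of mouse 6 had the highest collagen VI sum, 891 CPM. Its chondrocyte markers summed to 19360 CPM, against 7411 to 10212 CPM in the other resting libraries. Whether these are linked was not tested.

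Per kilobase of the longest annotated coding transcript, *Col6a1* had the highest mean level in the resting zone, 51.8 ± 21.0 CPM per kilobase. *Col6a2* (36.5 ± 17.6), *Col4a1* (30.0 ± 12.7), *Col6a3* (23.6 ± 9.20) and *Col4a2* (21.4 ± 9.90) followed, and each neighbour in this order overlapped the next across the 4 libraries. In the proliferative zone the order was *Col6a1* (26.7 ± 3.54 CPM per kilobase), *Col6a3* (17.4 ± 1.84), *Col6a2* (9.59 ± 4.34), *Col4a1* (1.44 ± 1.68) and *Col4a2* (0.31 ± 0.36). There the steps from *Col6a1* to *Col6a3* and from *Col6a2* to *Col4a1* were free of overlap, and the other steps were not. With the union of all exons as length, *Col6a2* moved to the fourth place in the resting zone (20.4 ± 9.86), behind *Col4a1* (26.6 ± 11.2) and *Col4a2* (20.9 ± 9.64). In CPM not divided by length, *Col6a3* (239 ± 93.0) was above *Col6a1* (212 ± 86.1) in the resting zone. Whether counts scale with transcript length after 2 rounds of amplification was not tested, so the order between genes depends on the length used.

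The ratio of *Col4a1* to *Col4a2* per kilobase was 1.42, 1.80, 1.31 and 1.27 in the resting libraries of mice 1, 2, 6 and 13. This narrow range gave a mean ratio of 1.45 ± 0.24 (n = 4). In the proliferative zone only mice 1 and 13 had counts of both genes, and the ratios of 4.39 and 4.88 rest on 2 and 1 counts of *Col4a2*.

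Among the collagen VI chains, the ratio of *Col6a2* to *Col6a3* per kilobase was 1.50, 0.97, 1.56 and 1.89 in the resting libraries and 1.07, 0.32, 0.49 and 0.42 in the proliferative libraries. It was lower in the proliferative library of each of the 4 mice. The ratio of *Col6a1* to *Col6a2* was 0.96, 2.60, 1.38 and 1.56 in resting and 1.37, 4.97, 3.09 and 3.66 in proliferative libraries, higher in the proliferative library of each mouse. The ratio of *Col6a1* to *Col6a3* was 1.44, 2.53, 2.15 and 2.95 in the resting zone and between 1.47 and 1.58 in all 4 proliferative libraries. These ratios were not tested. Lengths from the union of all exons, which include retained introns of *Col6a2*, lowered its mean ratio to *Col6a3* in the resting zone from 1.48 to 0.98 and raised the mean ratio of *Col6a1* to *Col6a2* from 1.63 to 2.73. In raw counts, without division by length, the mean resting ratio to *Col6a3* was 0.92 for *Col6a1* and 0.68 for *Col6a2*, below 1 in both cases. Per kilobase these means were 2.27 and 1.48.

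**Figure D3:**
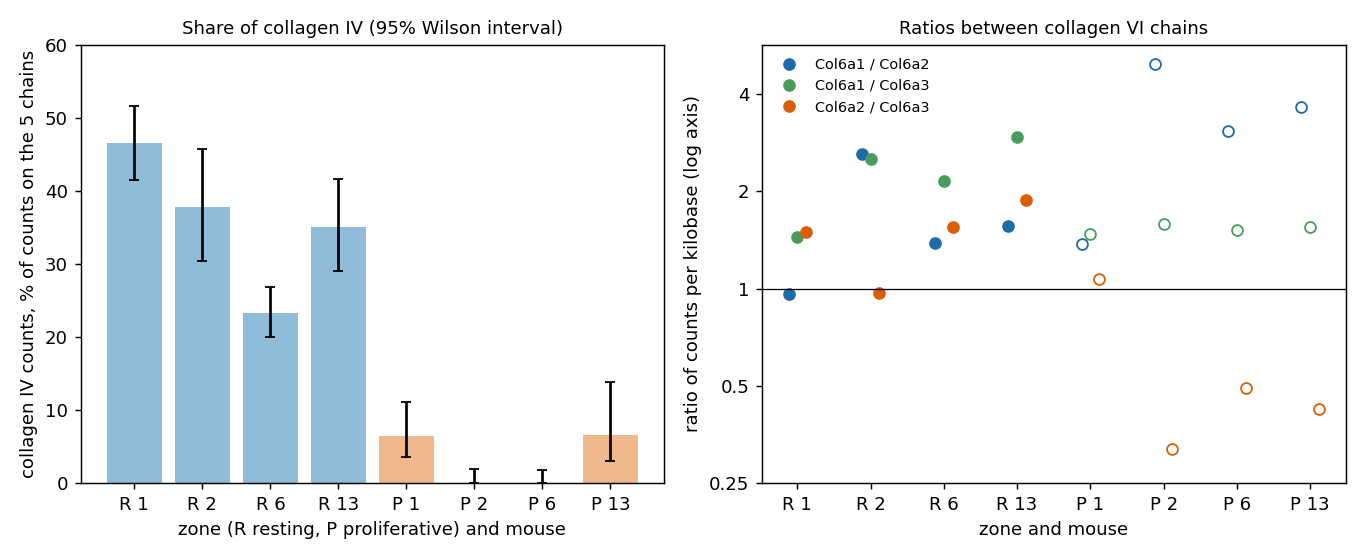
Left, share of the counts on the 5 genes that fell on collagen IV in each library (bars, percent, with 95% Wilson intervals), which is 23.3% to 46.5% in resting and 0% to 6.67% in proliferative libraries. Right, ratios of counts per kilobase between collagen VI chains on a log axis, with filled points for resting and open points for proliferative libraries, where *Col6a2* over *Col6a3* falls to 0.32 to 0.49 in mice 2, 6 and 13.

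The other collagen IV chains belong to the heterotrimers of specialised basement membranes, and none passed the filter on low counts. *Col4a3* had 5 counts in resting and 22 in proliferative libraries. *Col4a4* had 7, all in mouse 1, and 44, of which 27 were in mouse 2, and *Col4a5* had 2 and 5. These are few counts, spread unevenly over the libraries. When edgeR was run on all 17492 genes that had any count, which called 829 genes higher in the resting zone, or 4.74%, and 468 lower, or 2.68%, these 3 chains were not called (adjusted p = 0.353, 0.0789 and 0.758). *Col4a6* had 20 counts, all in the resting library of mouse 13. Its call in that fit (adjusted p = 0.000432) rests on this library, without which it had no count. *Col6a4*, *Col6a5* and *Col6a6* had no count in any library.

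Linkers and proteoglycans of basement membranes went both ways. Of 12 genes, 3 passed the filter on low counts, of which 1 fell in the resting zone. In the fit over genes with any count, 4 of the 12 rose and 2 fell. The gene that fell in both fits was *Nid2*, which encodes nidogen 2, a linker between laminin and collagen IV. It had 36.7 ± 30.3 CPM in resting and 284 ± 9.81 CPM in proliferative libraries (log2 fold change -2.83, edgeR adjusted p = 0.000594). Genes called higher in the proliferative zone were 263 of those tested, or 6.93%. *Hspg2*, the gene of the heparan sulfate proteoglycan perlecan, had a log2 fold change of -1.67 (edgeR adjusted p = 0.0185) and was called in the fit over genes with any count (-1.88, adjusted p = 0.00699), and *Sparc*, whose product binds collagen, one of 0.33 (adjusted p = 0.349). The median of the 3 was -1.67, and that of all 12 genes in the fit over genes with any count was 1.43. These medians come from different fits and genes, and the second includes genes without proliferative counts, such as *Tinagl1* (15 against 0). The median over all genes of that second fit was not computed.

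The 4 genes called higher in that fit, all below the filter, are named after their values were seen. *Col18a1*, another collagen of basement membranes, had 20, 2, 3 and 10 counts in the resting libraries of mice 1, 2, 6 and 13 and none in the proliferative libraries (edgeR adjusted p = 1.36e-05). *Agrn*, the gene of the proteoglycan agrin, had 51 counts in the resting zone against 8 (log2 fold change 2.65, adjusted p = 0.00896), but in mouse 13 it had 0 against 3, and the zones overlapped. *Npnt*, the gene of the integrin ligand nephronectin, had 39 against 5 (3.14, adjusted p = 0.0053), and *Smoc1* had 27 against 2 (3.78, adjusted p = 0.00822). *Col15a1*, a further collagen of basement membrane zones, had 7 counts in the resting zone against 43 and was not called (-2.19, adjusted p = 0.0712), although its zones did not overlap.

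None of 11 laminin chains passed the filter. The 9 with a count had a median log2 fold change of 1.60 in the fit over genes with any count, which called none of them. The laminin genes summed to 47.5 to 122 CPM in resting and 19.4 to 54.8 CPM in proliferative libraries, with overlap.

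Of 9 matrix proteins listed as binding collagen VI, 8 were tested, of which 1 rose and 5 fell in the resting zone, with a median log2 fold change of -1.84. In this list, *Hapln1*, *Matn3*, *Col2a1* and *Acan* are also among the chondrocyte markers, whose sums were lower in the resting zone. The gene that rose was *Dcn*, which encodes the small proteoglycan decorin, with 270 ± 74.0 CPM against 32.9 ± 6.56 CPM (log2 fold change 3.04, edgeR adjusted p = 8.78e-05). The genes that fell were *Hapln1*, which encodes a link protein of aggrecan and hyaluronan (-3.14), *Matn1* and *Matn3*, *Col2a1*, the gene of the main cartilage collagen (-1.37), and *Fmod*, the gene of fibromodulin (-1.76). In the fit over genes with any count, 7 of the 9 fell, with the addition of *Acan*, the gene of aggrecan (-2.10), and *Bgn*, the gene of biglycan (-1.05), whose edgeR adjusted p among genes past the filter were 0.0109 and 0.0108.

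Of 12 receptors for these collagens, 8 were tested and 1 was called. *Cd44*, a hyaluronan receptor also listed as a collagen receptor, had 176 ± 84.8 CPM in resting and 6.23 ± 7.58 CPM in proliferative libraries (log2 fold change 4.74, edgeR adjusted p = 0.000306). *Ddr2*, the gene of a collagen-binding receptor tyrosine kinase, had a log2 fold change of -2.11 (adjusted p = 0.0119) and was called in the fit over genes with any count (-2.32, adjusted p = 0.000279). *Antxr1* and *Antxr2*, the genes of a pair of cell surface receptors that bind collagens VI and IV, had 2.15 (adjusted p = 0.0161) and 2.02 (adjusted p = 0.0282). The median over the 8 genes was -0.16. Of the 4 receptors below the filter, *Itga11*, the gene of a collagen-binding integrin subunit, was called higher in the fit over genes with any count, with 19 counts against 0 (edgeR adjusted p = 0.00297).

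Of 19 listed genes whose products fold and crosslink collagen chains, 18 were matched in the count table. Of these 12 were tested, 7 fell in the resting zone and none of the 12 was called higher, with a median log2 fold change of -1.54. Of the 6 below the filter, 2 were called higher in the fit over genes with any count, in which 8 of the 18 fell. *Serpinh1*, the gene of the collagen chaperone HSP47, had 87.2 ± 24.6 CPM against 257 ± 39.4 CPM (-1.54, edgeR adjusted p = 0.00136). *P4ha1* and *P4hb*, the genes of the subunits of prolyl 4-hydroxylase, fell by 2.50 and 1.55 on the log2 scale, and *Plod2*, the gene of a lysyl hydroxylase, fell by 1.95. The other 3 that fell were *P4ha2*, *Crtap* and *Plod1*. Both genes called higher below the filter encode lysyl oxidases, which crosslink collagens, and are named after their values were seen. *Lox* had 109 counts in the resting zone against 11 (log2 fold change 3.67, edgeR adjusted p = 4.97e-08), and *Loxl1* had 20 against 0 (adjusted p = 0.00273). The resting sum of this list, 1975 to 2368 CPM, did not reach the proliferative range of 3369 to 3894 CPM.

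Of 12 proteases and inhibitors of basement membrane, 10 were tested and 3 rose in the resting zone, with none called lower and a median log2 fold change of 1.28. *Mmp9*, the gene of a gelatinase that cleaves collagen IV, had 453 ± 186 CPM against 10.8 ± 9.87 CPM (5.56, edgeR adjusted p = 0.000135). *Ctsk*, the gene of the collagenolytic cathepsin K, rose by 3.85 and *Ctsb*, the gene of cathepsin B, by 2.84. *Mmp9* and *Ctsk* are also in the list of osteoclast markers below. *Timp3*, the gene of a matrix-bound protease inhibitor, had a log2 fold change of 1.88 (adjusted p = 0.0161) and was called in the fit over genes with any count (1.67, adjusted p = 0.00546), in which 5 of the 12 genes rose. Of the 2 genes below the filter, *Mmp3*, which encodes stromelysin 1, was called higher in the fit over genes with any count, with 32 counts against 4 (edgeR adjusted p = 0.00981).

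**Figure D4:**
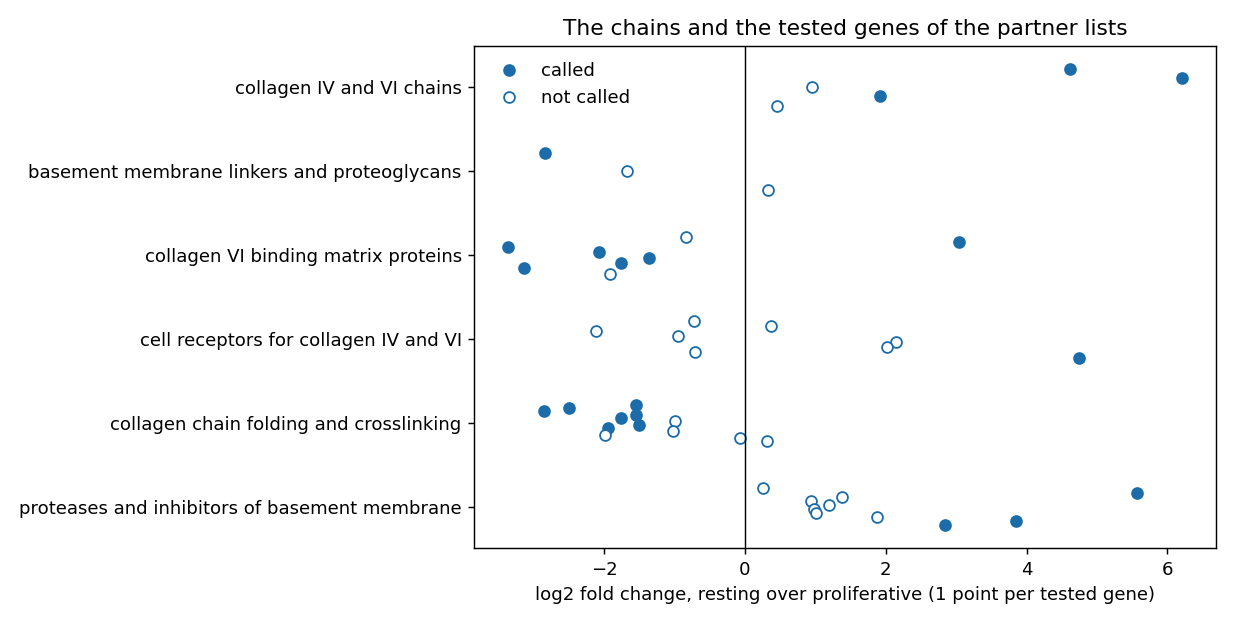
Log2 fold change of resting over proliferative (horizontal axis) of the collagen IV and VI chains and of each tested gene in 5 lists of partners, filled where called. The folding and crosslinking genes lie mostly below 0 with a median of -1.54, and *Col4a1* (4.61) and *Col4a2* (6.20) lie among the highest values.

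The strand setting of the counting is not given in the sources used here, and some partners overlap exons of another gene on the opposite strand. *Timp3* had 202 counts in all and *Syn3*, opposite to it, 15438. *Nid2* had 618 and *Rtraf* 13071, with a log2 fold change of -2.56 for *Rtraf* beside -2.83 for *Nid2*. *Ddr2* had 166 and *3110045C21Rik* 4972, and *Ctsb* had 344 and *Fdft1* 1224. These partners also moved the same way as their genes. The log2 fold change was 1.08 for *Syn3* beside 1.88 for *Timp3*, and 2.05 for *Fdft1* beside 2.84 for *Ctsb*. It was -0.66 for *3110045C21Rik* beside -2.11 for *Ddr2*. The values of these genes are uncertain, since reads of a gene and its partner cannot be told apart without the strand setting. The collagen IV and VI genes have little such overlap: beside the 22 bases shared by *Col4a1* and *Col4a2*, *Gm15419* covers 43 exon bases of *Col4a2* and had 0 counts in every library. If the counting took 1 strand only, reads of these collagens from the other strand would be in no gene's count, so that their levels may be those of a part of their reads.

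Genes whose log2 CPM (prior count 2) was most like that of each chain over the 8 libraries are given as a description, since all 8 share the difference between zones. For *Col4a1* they were *Tcirg1* (Pearson's r = 0.989), which encodes a subunit of the proton pump of osteoclasts, *Pltp* (0.984), the gene of phospholipid transfer protein, and *Mmp13* (0.984), the gene of a collagenase. For *Col4a2* they included *Rgs5* (0.992), a marker of pericytes, and *Tcirg1* (0.991). *Rgs5* had 113 ± 69.4 CPM in resting and 1.52 ± 1.98 CPM in proliferative libraries.

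*Col6a1* was most like *Tomm34* (r = 0.936), *Neat1* (0.926), a noncoding RNA of nuclear paraspeckles, and *Timp3* (0.917). *Col6a2* was most like *Smpd2* (0.956), *Midn* (0.956) and *Msrb1* (0.954), and *Col6a3* like *Dhx58* (0.947), *Nrp1* (0.938), the gene of neuropilin 1, and *Gcfc2* (0.921). *Pltp*, *Smpd2*, *Dhx58* and *Gcfc2* also have an opposite-strand partner on their exons. *Col4a1* and *Col4a2* had r = 0.972 with each other, which fell to 0.844 once the zone means were removed. Between the collagen VI chains r was 0.804 for *Col6a1* and *Col6a2*, 0.771 for *Col6a1* and *Col6a3* and 0.709 for *Col6a2* and *Col6a3*. Across the families it was highest between *Col4a2* and *Col6a2* (0.873) and lowest between *Col4a1* and *Col6a3* (0.415). Over all 8 libraries, *Col6a2* thus lay closer to the collagen IV genes than *Col6a3* did.

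Markers of other cell types moved with the zone, and their part in the results on collagen IV and VI was not tested. The 15 endothelial markers all had a count and summed to 324 to 504 CPM in resting and 84.9 to 128 CPM in proliferative libraries, where *Pecam1*, *Kdr*, *Tie1*, *Cldn5*, *Robo4* and *Flt1* were at 0. The most abundant of them in the proliferative zone, *Egfl7*, had 80.1 to 110 CPM there and 83.4 to 158 CPM in the resting zone and was the 1 marker that passed the filter, without a call. The other 14 summed to 240 to 371 CPM in resting and 4.81 to 36.9 CPM in proliferative libraries. In the fit over genes with any count, *Pecam1*, *Cdh5*, *Kdr*, *Emcn*, *Flt1* and *Erg* were called higher in the resting zone, with 51 counts of *Pecam1* and 43 of *Flt1* against 0. Of 10 markers of pericytes and smooth muscle, 9 had a count, 2 were tested and *Rgs5* was called, and 2 of the 7 below the filter were called in the other fit. They summed to 407 to 811 CPM and 247 to 402 CPM, with *Pdgfrb*, *Kcnj8*, *Abcc9*, *Des* and *Notch3* at 0 in the proliferative zone. Without *Tagln*, which had 243 to 397 CPM in the proliferative zone, they summed to 98.3 to 346 CPM and 0 to 5.14 CPM. Both cell types normally carry a collagen IV basement membrane.

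For the remaining lists, calls below the filter come from the fit over genes with any count, and all were higher in the resting zone. Marrow stroma and fibroblast markers (10 genes, 1 of 2 tested and 1 of 8 below the filter called) summed to 177 to 384 CPM in resting and 1.60 to 46.6 CPM in proliferative libraries, where *Thy1*, *Dpt*, *Pi16* and *Dpp4* were at 0. Adipocyte markers (5 of 7 with a count, 0 of 1 tested and 2 of 4 below the filter called) summed to 88.1 to 200 CPM and 0 to 36.9 CPM, with *Cidec* at 0 in the proliferative zone and *Plin1* and *Lep* at 0 in both. Skeletal muscle markers (3 of 6 with a count, none tested and none called) stayed at or below 3.17 CPM in resting and 14.4 CPM in proliferative libraries, with *Myh1*, *Myh4* and *Ckm* at 0. The sums of the stroma and adipocyte lists did not overlap between the zones, and that of the muscle list did.

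Osteoblast and osteocyte markers (11 genes, 3 of 7 tested and 2 of 4 below the filter called) summed to 10451 to 37762 CPM in resting and 684 to 4194 CPM in proliferative libraries. Osteoclast markers (8 genes, 4 of 4 tested and 3 of 4 below the filter called) summed to 1496 to 4549 CPM and 14.4 to 445 CPM, with *Ocstamp* and *Calcr* at 0 in the proliferative zone. Macrophage markers (9 genes, 1 of 2 tested and 4 of 7 below the filter called) summed to 657 to 805 CPM and 185 to 414 CPM, with *Adgre1* and *Fcgr1* at 0 in the proliferative zone. Without *Csf1r*, which was not called and had 183 to 377 CPM in the proliferative zone, they summed to 243 to 476 CPM and 0 to 58.2 CPM. All 3 full sums separated the zones, although the osteoblast gene *Sp7* had a log2 fold change of -1.30 (edgeR adjusted p = 0.0471).

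Neutrophil markers (7 genes, 5 of 6 tested and 1 of 1 below the filter called) summed to 2979 to 3674 CPM in resting and 0 to 522 CPM in proliferative libraries, with *Elane* and *Mpo* at 0 there. Erythroid markers (7 genes, 4 of 7 tested called) summed to 1811 to 12027 CPM and 0 to 1716 CPM.

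The proliferative library of mouse 1 had the highest sum of that zone in 8 of the 10 lists of other cell types, all but those of pericytes and muscle. Its sums were 1716 CPM for erythroid markers against 0 to 339 CPM in the other 3, 522 against 0 to 95.9 CPM for neutrophils, 445 against 14.4 to 95.4 CPM for osteoclasts and 4194 against 684 to 1257 CPM for osteoblasts. This library held 11 of the 17 proliferative counts of collagen IV, and that of mouse 13 held the other 6. In mouse 13 the erythroid, neutrophil, adipocyte and muscle sums of that zone were 0. Its osteoblast (1257 CPM), osteoclast (95.4 CPM) and macrophage (377 CPM) sums were above those of mice 2 and 6. All 3 proliferative counts of *Emcn* were in this library. The collagen IV sum was 24.9 CPM in mouse 13 and 21.4 CPM in mouse 1. The part of other cells in these counts was not tested. Without the proliferative library of mouse 1, the log2 fold change was 5.45 for *Col4a1* and 6.99 for *Col4a2* (edgeR adjusted p = 0.00074 and 0.000112).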

How the data were processed

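RNA from laser-microdissected resting and proliferative zone chondrocytes was sequenced in 8 libraries from 4 mice. The authors aligned reads with HISAT2 2.1.0 to GRCm38, counted them with HTSeq 0.11.2 and the Ensembl 78 annotation, and deposited whole-number counts of 43629 genes without normalization. A second table holds a signal per library, which the authors computed as CPM scaled by TMM factors. It served only to link symbols to identifiers. Its fold change, mean log CPM, likelihood ratio, p-value and false discovery rate columns hold the authors' own comparison and were not used.

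Counts were tested in R 4.3.3 with edgeR 4.0.16 (TMM factors, filterByExpr by zone, counts of at least 10 and totals of at least 15, quasi-likelihood test, zone as the only term, Benjamini-Hochberg adjustment over 3793 genes). The standard error is the log2 fold change divided by the root of the F statistic. The common biological coefficient of variation was 0.38. Genes below the filter were read from a second fit over 17492 genes with a count. The fit was run on counts simulated with a common dispersion for all genes and log2 changes of 3. It called 197 of 197 changed genes and 1 unchanged gene. This does not check genes with few counts in a zone, such as *Col4a2*, or changes near the threshold, such as that of *Col6a2*. Alternatives were the likelihood ratio test, DESeq2 1.42.0, other scaling factors, other filters, the mouse as a block, glmTreat with a log2 fold change of 1, calls at an adjusted p below 0.05, and the omission of each library in turn. Levels per kilobase used the exons of the longest coding transcript in GENCODE M21. The union of exons was added as an alternative after the lengths were seen.

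Libraries of 1 mouse share its number in the labels and so are paired. With zone means removed, their correlation across genes was 0.195, 0.0104, 0.144 and 0.0635 in mice 1, 2, 6 and 13, and between -0.0624 and -0.00499 on average with other mice. Libraries of 1 zone come from separate animals.

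The collagen genes and all lists were chosen with earlier results of these data known. Named genes are the 5 chains, other chains of these collagens with a count, up to 4 tested genes with the lowest adjusted p in each partner list, the 3 genes most correlated with each chain (1 of which is not reported here), and genes that overlap a chain's exons. Every other gene was named after its values were seen. These include other genes called in a list, markers at 0, opposite-strand partners and genes that were not called, such as *Col15a1*, *Sp7*, *Egfl7*, *Tagln* and *Csf1r*.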

Additional observations from a re-analysis of the deposited data

Results flagged for a closer look

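In 7 of 65 sets of 4 libraries examined (1 quantity in 1 zone), the highest library stood apart from the other 3 by more than Dixon's 95% critical value, which chance gives in about 1 set in 20 for normally distributed values. For the minor collagen IV chains these were *Col4a3* at 19.6 CPM, *Col4a4* at 21.3 CPM, *Col4a5* at 6.08 CPM and *Col4a6* at 98.1 CPM, each in the resting zone and each in a library with at most 20 counts of the gene. For *Col4a4*, *Col4a5* and *Col4a6* the other 3 libraries were at 0, so that any count there stands apart by construction and the chance rate does not apply. *Col4a3* and *Col4a6* were highest in the resting library of mouse 13, and *Col4a4* and *Col4a5* in that of mouse 1. *Fmod*, the gene of fibromodulin, reached 752 CPM in the resting library of mouse 6. In the proliferative zone, *Cd44* at 17.5 CPM and *Ctsk* at 256 CPM were highest in mouse 1. None of these sets was one of *Col4a1*, *Col4a2*, *Col6a1*, *Col6a2* or *Col6a3*.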

How the results depend on the processing

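With the mouse as a replicate block, which pairs the libraries of an animal, the log2 fold changes were 4.85 for *Col4a1*, 6.20 for *Col4a2*, 0.88 for *Col6a1*, 1.83 for *Col6a2* and 0.37 for *Col6a3*, and no call of these genes changed. *Col4a1* and *Col4a2* kept their direction and call in 17 of 17 alternatives each, and *Col6a1* and *Col6a3* were not called in any of 18. *Col6a2* lost its call against a log2 fold change of 1 (1.92), with upper quartile factors (1.70) and in 6 of 8 fits without 1 library (range 1.64 to 2.20). With at least 10 counts in every library, *Col4a1*, *Col4a2* and *Col6a2* were not tested and 0 chains were called. Over all genes, 829 were called higher and 468 lower in the resting zone with any count, 125 and 137 with 10 counts in every library, 207 and 82 against a log2 fold change of 1, and 635 and 427 at an adjusted p below 0.05. Without 1 library the number higher ranged from 255 (without the proliferative library of mouse 2) to 472. Partner genes called higher were 8 with DESeq2, 10 with the likelihood ratio test, 15 with any count, 0 with 10 counts in every library, 11 at an adjusted p below 0.05, and 4 to 8 without 1 library (8 without the resting library of mouse 2). Those called lower were 8 with 10 counts in every library and 3 against a log2 fold change of 1. Upper quartile factors moved the median of all genes by -0.22 and library totals by 0.12, and no chain changed direction. Depth limits the proliferative levels of *Col4a1* and *Col4a2*, which rest on 14 and 3 counts. Apart from fewer genes or libraries, the causes were not tested.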
